A study of Homo sapiens with 9 samples.

Results

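HBE1, HBD, HBB and the pseudogene HBBP1 are the beta-like globin genes of the human beta-globin locus other than the fetal gamma-globin pair HBG1 and HBG2. They were taken by name from a table of read counts with 58347 Ensembl gene IDs, in which they are 4 rows. All 4 passed the filter on low counts, and they are 4 of the 23675 genes tested. The counts come from 9 RNA-seq libraries of K562, a human erythroleukaemia line. The cells carried 3 introduced constructs under the EF1a promoter: an SS18-Frb fusion, an MS2-Fkbp fusion, and dCas9, a Cas9 that binds DNA where its guide matches but cannot cut. SS18 is a subunit of the BAF chromatin remodelling complex, and rapamycin joins Fkbp to Frb. Every library carried this system, controls included. The cells had a guide RNA to the HBG1 promoter (HBG1 sgRNA) or a non-targeting sgRNA, and were given 10 nM rapamycin or DMSO for 24 h. There were 3 libraries with the HBG1 sgRNA and rapamycin, 3 with the HBG1 sgRNA and DMSO, 2 with the non-targeting sgRNA and rapamycin, and 1 with the non-targeting sgRNA and DMSO. The labels do not say whether replicates were separate cultures or whether each guide's cells were 1 clone, so p-values measure only the spread between these libraries. The guide and the cell population that carries it cannot be told apart.

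The beta-like genes lie in 1 cluster in the order of their use in development, and each codes for a globin chain that pairs with an alpha-like chain in haemoglobin. A distal enhancer, the locus control region, serves all of them, and its contacts shift from the embryonic gene to the fetal pair and then to the adult genes. HBE1 codes for the embryonic epsilon chain. HBD codes for the delta chain, a minor adult chain, and HBB for the beta chain, the main adult one. HBBP1 is a pseudogene of the cluster that is transcribed but makes no globin chain. K562 is known for embryonic and fetal globin expression with very little adult beta-globin.

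All 4 genes are on the minus strand of chromosome 11 (GRCh38, GENCODE 29), and the order from the locus control region is HBE1, HBG2, HBG1, HBBP1, HBD, HBB. HBE1 (ENSG00000213931) is annotated from 5268345 to 5505652, a span that long transcripts extend far beyond the globin exons. HBBP1 (ENSG00000229988) runs from 5241105 to 5243537 and HBD (ENSG00000223609) from 5232678 to 5243657. HBB (ENSG00000244734) runs from 5225464 to 5229395. By the transcripts that GENCODE links to RefSeq, HBE1 starts 20086 bases upstream of the start of HBG1. HBBP1, HBD and HBB start 6322, 15211 and 22788 bases downstream of it.

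HBD showed the largest difference between guides of the 4 genes and fell under rapamycin, so its promoter is shown. The promoter table held HBD alone of the 4. The sequence is the 250 bases before the RefSeq start on the minus strand (chr11:5234484-5234733, RefSeq, GRCh38.p14), 5′ to 3′, with motif matches in capitals.
HBD promoter: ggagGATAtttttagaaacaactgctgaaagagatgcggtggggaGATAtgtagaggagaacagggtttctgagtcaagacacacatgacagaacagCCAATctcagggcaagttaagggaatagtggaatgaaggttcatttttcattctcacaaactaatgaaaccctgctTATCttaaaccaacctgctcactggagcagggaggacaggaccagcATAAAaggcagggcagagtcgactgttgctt
The motifs searched, on both strands, were GATA (the core read by GATA factors), CCAAT (the CCAAT box), CACCC (the CACCC box, the core read by erythroid KLF1) and TATAA or ATAAA (TATA-like). GATA was found at -246 to -243 and -205 to -202 and, on the other strand, as TATC at -77 to -74, counting -1 as the last base before the RefSeq start. The letters CCAAT were found at -153 to -149 and ATAAA at -31 to -27, and no 2 matches overlap. Whether any of these matches acts in the HBD promoter was not tested. CACCC was not among the letters of this window. These are common letters: of 27305 promoter windows of the same length, 46.7% held GATA, 32.7% CCAAT, 38.2% TATAA or ATAAA, and 53.9% CACCC. The GENCODE 29 start of HBD lies 165 bases upstream of the RefSeq one, inside the window.

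The counting bears on how far these genes can be separated. HBB and HBD are close relatives: their coding sequences have 444 bases each, and 412 of these (92.79%) are identical. The longest run they share is 54 bases (coding positions 97 to 150), and 2.532% of the 50-base words of HBB occur in HBD. HBE1 is further away, at 79.05% identity with HBB and 78.6% with HBD. HBD and HBBP1 share 88 exon bases, since the first exon of a long HBD transcript covers an exon of HBBP1. Of the 961 exon bases of HBE1, 96 are its own and 865 are also annotated to other genes, mostly the readthrough AC104389.4. That readthrough took 0 to 10 counts in each library, which does not show how reads over shared exons were handled. Levels per exon length below use all 961 bases. Of the 869 exon bases of HBG2, 498 are also annotated to other genes. Strand use is not given in the sources used here. Nor is the handling of multi-mapping reads or of reads over exons of more than 1 gene. The shares and the ratios of HBE1 to gamma below depend on how reads of HBG1 and HBG2 were counted.

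The libraries held 19797409 to 31619671 counts, and 12 genes of the beta- and alpha-globin loci (BGLT3, a non-coding RNA gene, among them) took 3.22% to 5.66% of them. Markers of the erythroid lineage fitted the label: 10 of 10 were above 1 CPM (counts scaled to a fixed library size) in every library, with summed levels of 1729 to 2061 CPM. Markers of other blood and stromal cells were low, with summed levels per library of 36.5 to 65.4 CPM for 6 megakaryocyte genes, 17.7 to 34.3 for 7 myeloid genes, 6.31 to 9.25 for 6 lymphoid genes and 5.42 to 26.5 for 4 fibroblast genes. Of the megakaryocyte genes, ITGA2B (33.1 to 61.9 CPM) and GP1BA (1.64 to 3.52 CPM) were above 1 CPM in every library, and ITGA2B was as high as the erythroid EPOR (30.8 to 37.3 CPM). The other 4 were under 1 CPM in every library, and PF4, a defining platelet gene, was at 0 counts in all 9. Levels below are CPM on library sizes scaled by TMM (trimmed mean of M-values). A gene is called where its adjusted p is under 0.05 in edgeR's quasi-likelihood fit, adjusted by Benjamini-Hochberg over all genes tested.

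By these counts, HBE1 was the main beta-like transcript of the HBG1 sgRNA cells. Under DMSO it stood at 12320, 7541 and 6597 CPM in replicates 1, 2 and 3, and under rapamycin at 14592, 7871 and 7372 CPM. The non-targeting libraries had 2030 CPM under DMSO (replicate 2) and 2979 and 2400 CPM under rapamycin (replicates 1 and 2). Every HBG1 sgRNA library was above every non-targeting one, the DMSO and rapamycin ranges of the HBG1 sgRNA overlapped, and replicate 1 was the highest in both.

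HBD, the minor adult gene, differed far more between guides. It stood at 734, 489 and 556 CPM under DMSO with the HBG1 sgRNA and at 320, 212 and 265 CPM under rapamycin. In the non-targeting libraries it was at 12.3 CPM under DMSO and 9.16 and 11.05 CPM under rapamycin. The 3 rapamycin libraries of the HBG1 sgRNA lay below all 3 DMSO libraries, and all 6 lay far above the non-targeting cells.

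HBB was low throughout, although it is the main beta-like gene of adult red cells. With the HBG1 sgRNA it stood at 28.8, 12.1 and 16.9 CPM under DMSO and at 13.6, 5.80 and 6.69 CPM under rapamycin. The non-targeting libraries had 0.77 CPM under DMSO and 1.14 and 0.73 CPM under rapamycin, which are 18, 29 and 16 counts. Its ranges under DMSO and rapamycin overlapped with the HBG1 sgRNA, since rapamycin replicate 1 was above DMSO replicate 2.

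The pseudogene HBBP1 followed HBD in the HBG1 sgRNA cells. It stood at 622, 465 and 488 CPM under DMSO and at 331, 226 and 198 CPM under rapamycin. In the non-targeting cells it was at 34.7 CPM under DMSO and 33.5 and 32.3 CPM under rapamycin. As with HBD, the 3 groups of values with the HBG1 sgRNA and DMSO, with the HBG1 sgRNA and rapamycin, and with the non-targeting sgRNA did not overlap.

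**Figure D1:**
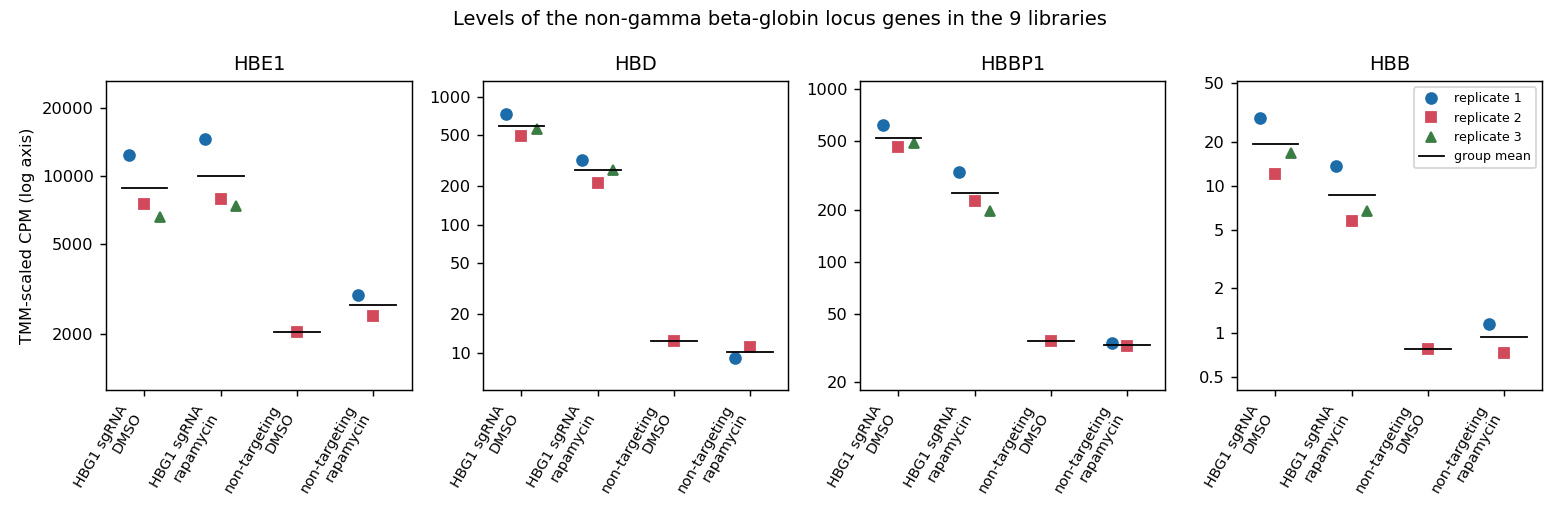
TMM-scaled CPM on log axes of HBE1, HBD, HBBP1 and HBB in the 9 libraries by guide and treatment; points are libraries with the symbol of their replicate number, and lines are group means. HBE1 stays between 6597 and 14592 CPM with the HBG1 sgRNA under either treatment, while HBD runs from 734 CPM down to 9.16 CPM.

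Per length, the genes can be set beside each other, as RPKM (CPM per kilobase of exon). With the HBG1 sgRNA under DMSO the order was HBE1 (9177 ± 3193 RPKM), HBD (467 ± 99.6), HBBP1 (361 ± 58.3) and HBB (14.8 ± 6.62; SD, n = 3 each). Under rapamycin the order was the same, at 10349 ± 4196, 209 ± 42.6, 173 ± 48.0 and 6.66 ± 3.26 RPKM (SD, n = 3 each). HBD and HBBP1 were neighbours whose ranges overlapped in both groups, and the other steps were larger than the spread. The place of these neighbours rests on the length used: with the RefSeq-linked transcript in place of all exons, HBBP1 stood at 1196 ± 193 RPKM and HBD at 755 ± 161 (SD, n = 3 each) under DMSO. In the non-targeting cells HBBP1 stood above HBD by either length. By exon length the single DMSO library had 2113 RPKM of HBE1, 23.8 of HBBP1, 9.70 of HBD and 0.59 of HBB. The rapamycin libraries had 2799 ± 426, 22.7 ± 0.59, 7.95 ± 1.05 and 0.72 ± 0.23 RPKM (SD, n = 2 each).

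The study asked whether the cells' own BAF, recruited at the promoter of HBG1, can activate that gene. For HBE1, HBD, HBBP1 and HBB, the comparison of rapamycin with DMSO in HBG1 sgRNA cells gave 3 falls and no called rise. In this comparison alone, recruitment at the guide's site and other effects of rapamycin cannot be told apart. The same comparison with the non-targeting sgRNA is given below. Across the genome 6.80% of genes tested were called in this comparison (1609 of 23675), and of the 4 genes 3 were called. HBD fell by 1.16 on the log2 scale (SE 0.14, adjusted p 0.000285), a 2.23-fold drop. HBBP1 fell by 1.06 (SE 0.15, adjusted p 0.000518) and HBB by 1.16 (SE 0.31, adjusted p 0.0308). The falls of these 3 genes were close to each other, although their levels ranged from under 30 to over 700 CPM.

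Each fall was seen in every same-numbered pair. HBD under rapamycin was 43.7%, 43.4% and 47.6% of its DMSO level in pairs 1, 2 and 3, HBBP1 was 53.2%, 48.7% and 40.6%, and HBB was 47.1%, 48.0% and 39.7%. HBE1 went the other way by little, at 118%, 104% and 112%. Its log2 fold change was 0.17 (SE 0.22, adjusted p 0.723) and was not called. With a replicate block in a fit of these 6 libraries alone, where 17.1% of genes were called, HBE1 passed as higher (0.16, SE 0.05, adjusted p 0.0423). Without rapamycin replicate 1 its unblocked value turned to -0.21, and without DMSO replicate 3 to -0.00097. The HBB call was lost without DMSO replicate 1 (-0.74, adjusted p 0.142), without DMSO replicate 3 (adjusted p 0.0640) and without rapamycin replicate 2 (0.113) or 3 (0.150), and HBB had 122 to 890 counts in these libraries.

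Rapamycin raised HBG1 (6.54-fold), HBG2 (6.34-fold) and BGLT3 (6.08-fold), a non-coding RNA gene between HBG1 and HBBP1, in the same cells (4 of the 8 other genes of the globin loci rose, HBQ1 among them, and 8 of 8 with a replicate block set separately for each guide, where 15.0% of all genes were called), so genes on the downstream side of HBG1 moved in opposite directions. HBBP1, which starts nearest to HBG1 of the 4 genes, and HBB, which starts furthest, fell by like amounts. HBE1 on the upstream side was not called without a block. With the block set separately for each guide HBE1 passed as higher, by little (0.16, SE 0.04, adjusted p 0.0137, edgeR's quasi-likelihood test). The summed HBG1 and HBG2 level was 395, 765 and 1017 CPM under DMSO and 3818, 4297 and 5852 CPM under rapamycin. In bulk RNA, fewer cells that transcribe a gene and less RNA per cell cannot be told apart.

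The make-up of the beta-like mRNA gives these changes within each library. Each share is a gene's counts per exon base over the sum for HBE1, HBG1, HBG2, HBD and HBB in the same library, so it does not depend on how libraries were scaled. HBE1 made up 92.9%, 87.7% and 83.2% under DMSO with the HBG1 sgRNA and 79.9%, 66.5% and 57.8% under rapamycin. By these counts it was the majority in all 6 libraries, and all 3 rapamycin libraries were below all 3 DMSO libraries. Whether gamma reads were lost in the counting, which would raise the HBE1 share, was not tested. HBD made up 4.60 ± 0.62% under DMSO and 1.42 ± 0.13% under rapamycin, and HBB 0.140 ± 0.032% and 0.0432 ± 0.0101% (SD, n = 3 each). The gamma pair made up 7.32 ± 4.30% and 30.5 ± 11.05%.

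The log2 difference of rapamycin minus DMSO was -0.38 for the HBE1 share, -1.69 for the HBD share, -1.70 for the HBB share and 2.21 for the gamma share. In each of these the 3 rapamycin and 3 DMSO libraries were fully apart, with a two-sided exact permutation p of 0.1, the smallest that 20 labelings allow. Over the 7 measures tested the adjusted p (Benjamini-Hochberg) was 0.14 for each of these 4 shares, and no measure could reach 0.05. The HBE1 share was lower under rapamycin although the HBE1 level was not: with the gamma pair left out of the sum, the log2 difference of the HBE1 share turned to 0.04. HBE1 stood at 33.8, 11.1 and 7.37 times the gamma pair under DMSO, and at 4.27, 2.07 and 1.42 times under rapamycin, again fully apart (log2 difference -2.59, two-sided exact permutation p 0.1, adjusted p 0.14).

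The non-targeting cells had another make-up. The gamma pair was 89.4% under DMSO and 85.9% and 88.5% under rapamycin, and HBE1 was 10.6%, 14.0% and 11.5%. HBD was 0.0485%, 0.0326% and 0.0399%, and HBB 0.00296%, 0.00397% and 0.00256%. The ratio of HBE1 to gamma, 0.118, 0.163 and 0.130, was thus below 1 in all 3 non-targeting libraries and above 1 in all 6 HBG1 sgRNA libraries.

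**Figure D2:**
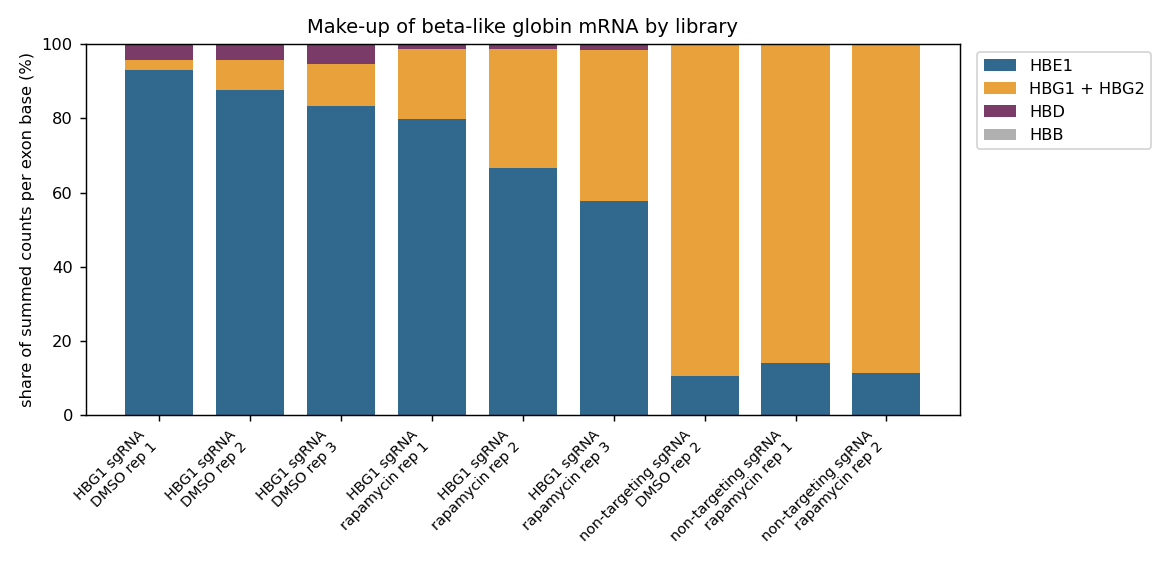
Share (%) of HBE1, the gamma pair, HBD and HBB in the summed counts per exon base of beta-like globin genes, 1 bar per library. HBE1 is the largest share in the 6 HBG1 sgRNA libraries (57.8% to 92.9%), the gamma pair is the largest in the 3 non-targeting ones, and HBB is too small to be seen.

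Ratios among the genes that fell had overlapping ranges under DMSO and rapamycin with the HBG1 sgRNA. HBB per exon base was 0.0306 ± 0.0072 of HBD under DMSO and 0.0308 ± 0.0091 under rapamycin (SD, n = 3 each), a log2 difference of -0.0035 (two-sided exact permutation p 1, adjusted p 1). HBBP1 was 0.779 ± 0.046 and 0.829 ± 0.152 of HBD (log2 difference 0.07, two-sided exact permutation p 0.8, adjusted p 0.933). In the non-targeting cells both ratios to HBD were higher. HBB was 0.0611 of HBD under DMSO and 0.122 and 0.0641 under rapamycin, and HBBP1 was 2.46, 3.20 and 2.56 of HBD. Whether some HBB counts are reads of the closely related HBD was not tested. The ratio of HBB to HBD was higher in each of the 3 non-targeting libraries than in any of the 6 HBG1 sgRNA libraries, where the highest was 0.0413.

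The comparison of guides under rapamycin asks how the HBG1 sgRNA cells differ from the non-targeting cells at the same treatment. All 4 genes were higher with the HBG1 sgRNA, where 0.0296% of genes tested (7 of 23675) were called, and the 4 are the whole of its higher calls. HBD was 26.4-fold higher (log2 fold change 4.72, SE 0.21, adjusted p 3.32e-09), HBB 9.06-fold (3.18, SE 0.46, adjusted p 0.0136), HBBP1 7.64-fold (2.93, SE 0.19, adjusted p 5.23e-07) and HBE1 3.70-fold (1.89, SE 0.27, adjusted p 0.0122). HBG1, HBG2 and BGLT3 were the lower calls. The calls of HBE1 and HBB rested on having both non-targeting libraries: without replicate 1 their adjusted p was 0.376 and 0.484, and without replicate 2 it was 0.451 for each, at log2 fold changes between 1.74 and 3.56. The HBB call was also lost with limma voom (3.04, adjusted p 0.810).

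Under DMSO the differences between guides were larger, but the non-targeting side was 1 library, assumed to vary like the other groups. Of the 4 genes 3 were called, where 0.0253% of genes tested (6 of 23675) were. HBD was 48.1-fold higher (5.59, SE 0.29, adjusted p 4.70e-08), HBB 24.8-fold (4.63, SE 0.65, adjusted p 0.00984) and HBBP1 15.1-fold (3.92, SE 0.27, adjusted p 7.06e-07). HBE1 was 4.34-fold higher and missed the threshold (2.12, SE 0.37, adjusted p 0.0922). HBE1 passed without HBG1 sgRNA DMSO replicate 1 (1.799, adjusted p 0.0287) or 3 (2.28, 0.0436) or rapamycin replicate 1 (2.12, 0.000105), and with limma voom (2.07, 0.0374). The HBB call was lost with limma voom (4.53, adjusted p 0.999). This comparison and the ones above share libraries, so their values are not independent of each other.

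In the non-targeting cells, the comparison of rapamycin and DMSO called 0.891% of genes tested (211 of 23675) and none of the 4 (edgeR). In this fit 0 of 4 had an unadjusted p under 0.05, where 3349 of 23675 genes did. DESeq2 called 0 of 4 and 660 of all genes, and limma voom 0 of 4 and 232 of all. The log2 fold changes were 0.41 for HBE1 (SE 0.34), -0.29 for HBD (SE 0.26), -0.07 for HBBP1 (SE 0.24) and 0.29 for HBB (SE 0.79), with adjusted p from 0.657 to 0.935. HBB had 16 to 29 counts in these libraries. HBE1 passed as higher when the spread was taken without both replicate 1 libraries of the HBG1 sgRNA (0.41, adjusted p 0.00552) or from these 3 libraries alone (0.40, adjusted p 1.37e-05). The 1 same-numbered pair, replicate 2, had HBD at 89.6% of its DMSO level, HBBP1 at 93.3%, HBB at 94.1% and HBE1 at 118%.

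The test of whether the rapamycin change differed between guides called 0.00422% of genes tested (1 of 23675) and none of the 4 (edgeR). In this fit 2 of 4 had an unadjusted p under 0.05, where 678 of 23675 genes did. DESeq2 called 0 of 4 and 0 of all genes, and limma voom 0 of 4 and 3 of all. The differences, HBG1 sgRNA minus non-targeting, were -0.87 for HBD (SE 0.30, unadjusted p 0.0111 in the edgeR fit) and -0.99 for HBBP1 (SE 0.28, unadjusted p 0.00287 in the edgeR fit). For HBB it was -1.45 (SE 0.84) and for HBE1 -0.23 (SE 0.41), and all 4 had an adjusted p above 0.99. With a replicate block set separately for each guide, where 0.0211% of genes were called (5 of 23675), HBD (-0.999, adjusted p 0.00166) and HBBP1 (-0.98, adjusted p 0.000539) passed as falling more with the HBG1 sgRNA. That fit holds 1 non-targeting pair, whose pairing could not be checked. It fits the non-targeting libraries exactly, so its p-values hold no spread between them. Without the block, HBBP1 passed without HBG1 sgRNA rapamycin replicate 1 (-1.23, adjusted p 0.0167) and without both replicate 1 libraries (-1.09, adjusted p 4.04e-05).

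**Figure D3:**
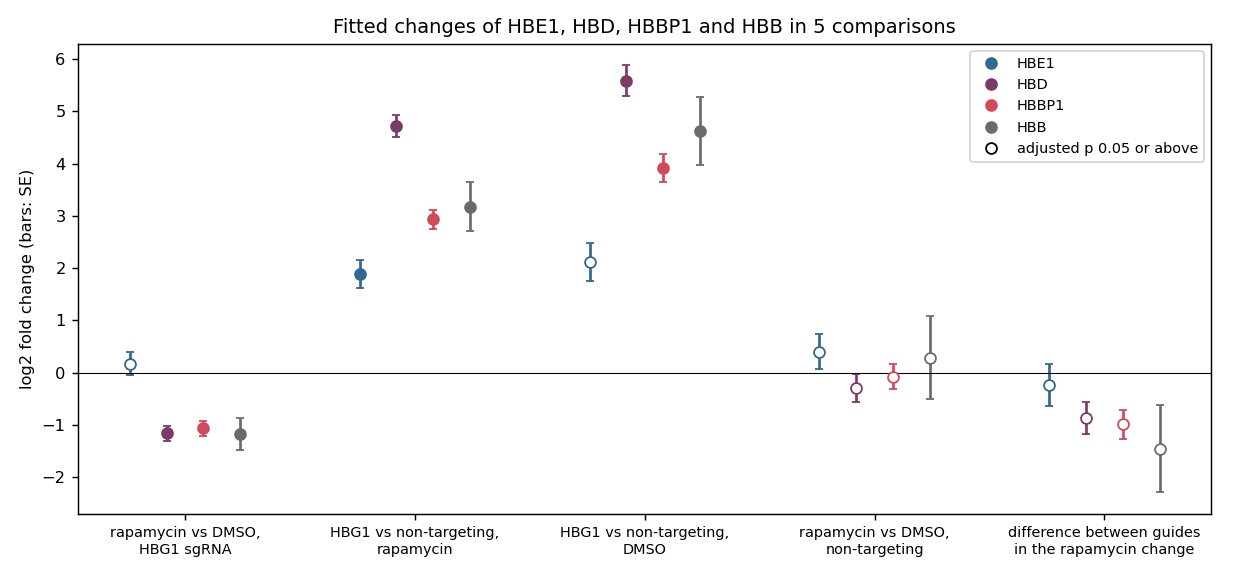
Log2 fold changes (edgeR, bars: SE) of the 4 genes in the 5 comparisons; filled points have an adjusted p under 0.05. HBD, HBBP1 and HBB lie near -1.1 for rapamycin with the HBG1 sgRNA and between 2.93 and 5.59 for the HBG1 against the non-targeting sgRNA, and HBE1 moves least between guides.

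Replicate number moved with the levels of these genes in the HBG1 sgRNA cells. Replicate 1 was the highest of 3 for each of the 4 genes under both treatments. Against the mean of replicates 2 and 3, it held 1.74 times as much HBE1 under DMSO and 1.91 times under rapamycin, 1.99 and 2.17 times as much HBB, 1.40 and 1.34 times as much HBD, and 1.31 and 1.56 times as much HBBP1. For HBG1 the same ratio was 0.367 and 0.720, and for HBG2 0.499 and 0.776, so replicate 1 was low in gamma where it was high in epsilon. The embryonic alpha-like gene HBZ was also higher in replicate 1, at 1.44 and 1.58 times, and HBA1 at 1.24 and 1.27 times. Replicate 1 also stood apart over all genes compared: its chi-square per gene against replicates 2 and 3 was 14.99 to 16.8. Between replicates 2 and 3 it was 4.58 under DMSO and 7.38 under rapamycin. The share of all genes that were highest in replicate 1 was not counted. Whether these 4 genes differ from the rest in this was not tested, nor was what set replicate 1 apart. With both replicate 1 libraries of the HBG1 sgRNA left out, an alternative chosen after seeing the data, the 3 falls under rapamycin were still called. So were the 4 rises against the non-targeting sgRNA under rapamycin. That fit also called more of all genes between the guides under rapamycin than the main fit did, as listed below, so these calls met an easier test.

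**Figure D4:**
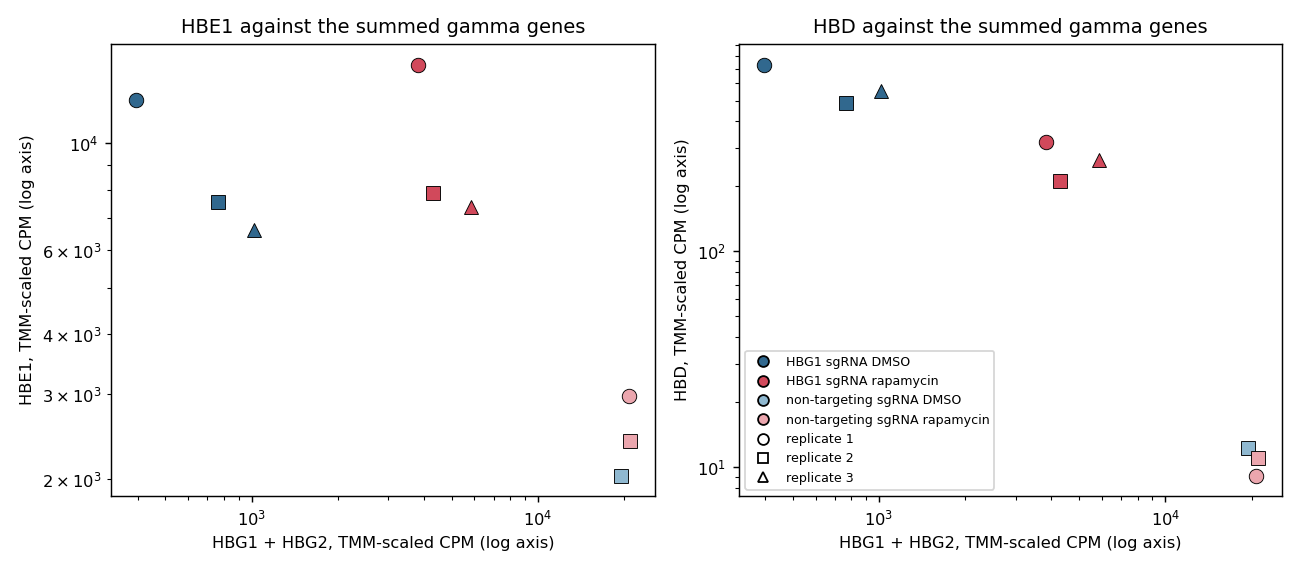
HBE1 (left) and HBD (right) against summed HBG1 and HBG2, all in TMM-scaled CPM on log axes, 1 point per library. From DMSO to rapamycin with the HBG1 sgRNA, points move right (from 395 to 3818 CPM of gamma in replicate 1), with HBD lower and HBE1 nearly level; the non-targeting libraries lie at the lower right, at 19465 to 21008 CPM of gamma.

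Across the 9 libraries, HBD, HBBP1 and HBB were each other's nearest genes. Among 15177 genes with a symbol and a mean log2 CPM of at least 1, the highest Pearson correlation of log2 CPM with HBD was that of HBBP1 (r = 0.993), then HBB (0.978) and TRMT13 (0.953). For HBBP1 they were HBD, HBB (0.988) and BRICD5 (0.959), and for HBB they were HBBP1, HBD and BRICD5 (0.976). For HBE1 they were GAGE12C (0.979), GAGE12D (0.959) and GAGE12H (0.956), near-identical copies of 1 family at 1.16 to 4.54 CPM. The 9 points share 2 guides and 3 replicate numbers, and with 15177 genes some correlate by number alone. Within the 6 HBG1 sgRNA libraries HBD kept r = 0.961 with HBBP1 and 0.932 with HBB, and HBE1 had r = 0.146 with HBD, 0.235 with HBBP1 and 0.462 with HBB.

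The list of known regulators of the locus held 40 genes. Of these 39 were tested; BCL11A, the repressor of the gamma genes, did not pass the filter on low counts. In rapamycin against DMSO with the HBG1 sgRNA, 2 of 39 rose and 2 fell, where 6.80% of all genes were called, and their median log2 fold change was -0.09, against 0.02 over all genes tested. With a replicate block set separately for each guide, 4 rose and 8 fell, where 15.0% of all genes were called. The erythroid activators NFE2 (0.39, SE 0.09, adjusted p 0.0144) and GATA1 (0.31, SE 0.08, adjusted p 0.0326) rose. ATF4, the effector of the integrated stress response (-0.37, SE 0.10, adjusted p 0.0316), and the arginine methyltransferase PRMT5 (-0.34, SE 0.08, adjusted p 0.0149) fell. The call of NFE2 was lost without DMSO replicate 2 or 3 of the HBG1 sgRNA (adjusted p 0.0860 and 0.0806), and that of PRMT5 without DMSO replicate 2 or rapamycin replicate 3 (0.0502 and 0.0904). GATA1 lost its call without any of 5 libraries (rapamycin replicates 1 and 3 and DMSO replicates 2 and 3 of the HBG1 sgRNA, and non-targeting rapamycin replicate 2; adjusted p 0.0501 to 0.146). ATF4 lost its call without any of 7 (all HBG1 sgRNA libraries but rapamycin replicate 1, and both non-targeting rapamycin libraries; 0.0539 to 0.135), with upper quartile scaling (0.0584) and with the compared groups alone (0.0604). With the non-targeting sgRNA the same 4 genes had log2 fold changes of 0.35, 0.16, -0.48 and -0.34 under rapamycin. In this comparison 0 of 39 were called, where 0.891% of all genes were (edgeR). In the same fit 5 of 39 had an unadjusted p under 0.05, where 3349 of 23675 genes did. DESeq2 called 1 of 39, where it called 660 of all genes, and limma voom 0, where it called 232. The replicate block called 1 as higher and 2 as lower, where 3.27% of all genes were called.

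Between guides under rapamycin 0 of 39 regulators were called, where 0.0296% of all genes were. Of the 39, 2 had an unadjusted p under 0.05 (edgeR), where 1484 of 23675 genes did. Under DMSO 0 of 39 were called, where 0.0253% of all genes were. Of the 39, 0 had an unadjusted p under 0.05 (edgeR), where 720 of 23675 genes did. DESeq2 and limma voom also called 0 of 39 in both comparisons. Of all genes DESeq2 called 13 under rapamycin and 7 under DMSO, and limma voom 6 and 7. At such shares, no call among 39 genes says nothing particular of the regulators. Of the 8 other genes of the globin loci, HBG1, HBG2 and BGLT3 were called as lower with the HBG1 sgRNA under each treatment, and the 5 genes of the alpha-globin locus on chromosome 16 were not called (HBZ, HBM, HBA1, HBA2 and HBQ1). Those 5 lay between -0.05 and 0.50 on the log2 scale under rapamycin.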

How the data were processed

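The authors deposited 1 table of read counts, as whole numbers by Ensembl gene, for 9 poly-T selected libraries. Per the submitters' processing notes, the tools included STAR 2.7.3a, featureCounts, Subread 2.0.0, R 4.1.2, limma 3.34.9 and edgeR 3.24.0 with the build GRCh38; which tool made the counts, the annotation release and the counting settings are not given in the sources used here. Symbols and positions came from GENCODE 29, which holds 58039 of the 58347 IDs (99.47%). Sample titles gave each library's group and replicate number.

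The counts were fitted in R 4.3.3 with edgeR 4.0.16. Genes were filtered with filterByExpr (minimum count 10) and scaled with TMM, and 1 quasi-likelihood fit with 1 mean per group held all 9 libraries. SE is the absolute log2 fold change over the square root of F. Shares and ratios were compared with two-sided exact permutation tests. Alternatives were other scalings, no filter and a minimum count of 50, DESeq2 1.42.0, limma 3.58.1 voom, the compared groups alone, replicate blocks, and each library left out.

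The numbers were taken to pair the HBG1 sgRNA libraries. Same-numbered libraries deviated together from their group means, with correlations of 0.553, 0.278 and 0.231 over 11498 genes, each above the limit of 0.1. Replicates 2 and 3 also passed that limit when crossed (0.258 and 0.194). The values thus set replicate 1 apart but do not settle the pairing of replicates 2 and 3. Across guides under rapamycin the same-numbered values were -0.068 and -0.069. No library repeats another, with a chi-square per gene of 4.58 to 16.8 between replicates. The genes and lists were chosen with earlier results of these data known. The 4 genes were named in every comparison, with the called regulators (at most 5 by adjusted p) and the 3 genes with the highest correlation to each.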

Additional observations from a re-analysis of the deposited data

Results flagged for a closer look

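The rapamycin change of HBD and HBBP1 differed between guides when replicates were blocked separately for each guide. The difference, HBG1 sgRNA minus non-targeting sgRNA, was -0.999 for HBD (adjusted p 0.00166) and -0.98 for HBBP1 (adjusted p 0.000539; edgeR's quasi-likelihood test, adjusted by Benjamini-Hochberg). Without the block neither passed (adjusted p above 0.99 for both). In the pairs, HBD was at 43.7%, 43.4% and 47.6% of its DMSO level with the HBG1 sgRNA and at 89.6% in the 1 non-targeting pair, and HBBP1 at 53.2%, 48.7% and 40.6% against 93.3%. The fit rests on a single non-targeting DMSO library. With the block it fits the non-targeting libraries exactly, so its p-values hold no spread between them.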

How the results depend on the processing

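HBD and HBBP1 kept their direction and their call under every alternative run for rapamycin with the HBG1 sgRNA (22 each) and for the guides under rapamycin (20 each) and under DMSO (19 each). Log2 fold changes with 1 library left out ran from -1.31 to -0.97 (HBD), -1.31 to -0.91 (HBBP1), -1.62 to -0.74 (HBB) and -0.21 to 0.49 (HBE1) for rapamycin with the HBG1 sgRNA. For the guides under rapamycin they ran from 1.503 to 2.06 for HBE1 and from 2.72 to 3.56 for HBB, and under DMSO from 1.799 to 2.28 for HBE1. With the non-targeting sgRNA HBB ran from -0.087 to 0.56. In the interaction HBE1 ran from -0.62 to 0.088, HBBP1 from -1.23 to -0.84 and HBD from -1.02 to -0.68. The ratio of HBB to HBD ran from -0.23 to 0.17 and that of HBBP1 to HBD from -0.019 to 0.24. The reversals among these were HBE1 under rapamycin (-0.21 and -0.00097), HBE1 in the interaction (0.088), HBB with the non-targeting sgRNA (-0.087), HBB to HBD (0.17, 0.08 and 0.14) and HBBP1 to HBD (-0.019).

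Without the filter, HBE1 passed for the guides under DMSO (2.11) and for rapamycin with the non-targeting sgRNA (0.40), and HBD (-0.86) and HBBP1 (-0.98) passed in the interaction. HBB lost its rapamycin call with DESeq2 (-1.15) and with the compared groups alone (-1.16), and its guide calls with limma voom (3.04 and 4.53), under which HBE1 passed under DMSO (2.07). The compared groups alone passed HBE1 for the guides under DMSO (2.11) and for the non-targeting sgRNA (0.40). Leaving out both HBG1 sgRNA replicate 1 libraries passed HBE1 in the same comparisons (1.8001 and 0.41) and HBBP1 in the interaction (-1.09). With a replicate block, HBE1 passed under rapamycin with the HBG1 sgRNA on 6 libraries (0.16) and within each guide (0.16), and for the guides under DMSO over all 9 libraries (1.93). Blocks over all 9 libraries and within each guide turned HBB with the non-targeting sgRNA to -0.41 and -0.087, and the block over all 9 turned HBE1 in the interaction to 0.071. The block within each guide passed HBD (-0.999) and HBBP1 (-0.98) in the interaction, and the blocks changed no other call of the 4 genes. HBB to HBD turned to 0.0011 with 1 count added, and the HBE1 share to 0.045 without the gamma genes. The cause of these changes was not tested.

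Calls over all genes moved by over 1.5 times as follows. For rapamycin with the HBG1 sgRNA the 1609 calls became 3441 and 3547 with the replicate block on 6 libraries and within each guide, and 664 to 1731 with 1 library left out. For the guides under rapamycin the 7 became 91 without a filter, 13 with DESeq2, 21 with the replicate block, 37 without both replicate 1 libraries, and 3 to 8 with 1 library left out. For the guides under DMSO the 6 became 23 without a filter and 13 with the replicate block. For the non-targeting sgRNA the 211 became 668 without a filter, 660 with DESeq2, 1548 with the compared groups alone, 376 and 774 with the replicate blocks, 1367 without both replicate 1 libraries, and 0 to 514 with 1 library left out. The 1 interaction call became 8 without a filter, 3 with limma voom, 3 and 5 with the replicate blocks, 4 without both replicate 1 libraries, 0 with total-count scaling, a minimum count of 50 or DESeq2, and 0 to 4 with 1 library left out. Comparisons that need the single non-targeting DMSO library have no value without it, and the block within each guide gives none between guides. That block fits the non-targeting libraries exactly, so its p-values hold no spread between them.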

Other observations

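The balance of beta-like over alpha-locus transcripts also differed between guides. Summed CPM of HBE1, HBG1, HBG2, HBD and HBB over that of the alpha-globin locus was 0.455, 0.385 and 0.343 with the HBG1 sgRNA under DMSO (replicates 1, 2 and 3) and 0.508, 0.418 and 0.520 under rapamycin. In the non-targeting cells it was 0.937 under DMSO and 0.716 and 0.815 under rapamycin, so no HBG1 sgRNA library reached a non-targeting one. The summed level of HBE1, HBD and HBB was 9431 ± 3192 CPM under DMSO and 10219 ± 4082 CPM under rapamycin with the HBG1 sgRNA (SD, n = 3 each), against 2044 CPM and 2701 ± 408 CPM (SD, n = 2) in the non-targeting cells. These ratios compare CPM and not levels per length, and were not tested.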
